A study of Homo sapiens with 6 samples.

Results

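The Hedgehog pathway and its GLI transcription factors were described here through 9 genes, taken by symbol from the 33392 genes of the table: the receptor PTCH1 and co-receptor GAS1, the transducer SMO, the ciliary receptor GPR161, the GLI partners SUFU and SPOP, and GLI1, GLI2 and GLI3. All 9 symbols had a row. RNA was sequenced from HK-2 cells, an immortalised epithelial line derived from the human proximal tubule. In 3 libraries the cells received an siRNA against the kinase DYRK2 together with TGF-β1 (siDYRK2), and in the other 3 a scramble siRNA together with TGF-β1 (scramble), all labelled 48 h. Both groups thus carry the cytokine, a driver of matrix production in the tubule, and cells without it were not analysed here. The siRNA sequence is not given in the sources used here, and the labels do not tell whether replicates came from separate cultures. All p-values therefore rest on the spread among these 6 libraries, which may be technical.

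In the absence of ligand PTCH1 keeps SMO inactive, and the GLI proteins are held by SUFU, phosphorylated by protein kinase A, casein kinase 1 and GSK3, and processed to repressors or degraded. Ligand binding relieves SMO at the primary cilium, and GLI2 then activates target genes that include GLI1 and PTCH1. In mouse kidney this signalling is known mostly from ligand-producing epithelium and GLI1-positive perivascular cells. DYRK2 is known from mammalian cell culture as a kinase that phosphorylates GLI2 and promotes its degradation, so the comparison asks what the transcripts of the pathway did when DYRK2 was silenced. Transcript levels do not measure GLI protein, its cleavage or its activity.

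Expression is given as FPKM, fragments scaled to transcript length and to the total mapped in the library, in which levels can be compared between genes. The FPKM of a library summed to between 252318 and 255378, and the number of fragments is unknown. DYRK2 itself stood at 1.45, 1.54 and 1.49 FPKM in the siDYRK2 libraries, against 5.84, 6.06 and 5.96 FPKM in the scramble libraries (log2 fold change −1.69, limma adjusted p = 2e-06), without overlap. Of 8 epithelial markers all were tested. CDH1, KRT18, KRT19 and CLDN4 were called lower with siDYRK2 and KRT7 higher, and the median log2 fold change of the list was −0.34. By the rule given below, this is 50% lower and 12.5% higher, beside 17.9% and 20.4% of all tested genes. EPCAM, KRT8 and OCLN were not called (log2 fold change −0.19, 0.034 and −0.008). The summed level of the 8 markers was mostly KRT7 (542 FPKM with siDYRK2 and 382 FPKM with scramble). It was 773 to 814 FPKM in siDYRK2 and 726 to 742 FPKM in scramble libraries. Proximal tubule identity was hardly visible. Of 11 such markers 8 were below the expression filter and 3 were not analysed here, and their summed level was 0.76 to 1.14 FPKM with siDYRK2 and 0.99 to 1.02 FPKM with scramble. Of 7 lung epithelial markers 3 were tested, 2 were below the filter (SFTPA2 and SFTPC) and 2 had no row under their symbol (SFTPA1 and SCGB1A1). Of the 3, NKX2-1 and NAPSA were called lower with siDYRK2, and SFTPB was not called (4.03 FPKM with siDYRK2 and 3.65 FPKM with scramble). NKX2-1, a factor of lung and thyroid epithelium, stood at 23.4 ± 0.472 FPKM in siDYRK2 and 26.5 ± 0.895 FPKM in scramble libraries (SD, n = 3 each), and the renal factor PAX8 at 0.0867 ± 0.00577 FPKM in siDYRK2 and 0.183 ± 0.00577 FPKM in scramble libraries (SD, n = 3 each). The 7 fibroblast and pericyte markers with a row were all under the filter and summed to 0.86 to 0.96 FPKM with siDYRK2 and 0.56 to 0.65 FPKM with scramble, the sum being mostly COL1A1. PDGFRB, which marks pericytes, was at 0.05 FPKM or less and PDGFRA at 0.02 FPKM or less in every library. Endothelial markers summed to 0.1 to 0.16 FPKM with siDYRK2 and 0.05 to 0.09 FPKM with scramble. The immune markers summed to 17 to 17.8 FPKM with siDYRK2 and 11.3 to 17.8 FPKM with scramble, nearly all of it CD68, a lysosomal protein.

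GLI2 and SMO were higher in the siDYRK2 libraries, and no other of the 9 genes was called. The fold change is siDYRK2 minus scramble on the scale of log2(FPKM + 0.5), tested with limma across the 15121 genes averaging 0.5 FPKM or more and called at a Benjamini-Hochberg adjusted p under 0.05. By this rule 20.4% of all tested genes were called higher and 17.9% lower. Of the 9 genes 6 were tested, of which 2 were called higher and 0 lower. For the count of 0 lower, limma without the trend called 1 (GPR161, log2 fold change −0.20, adjusted p = 0.041), and 0 had an unadjusted p under 0.05 in the direction of a decrease in limma with the trend. The median log2 fold change of the 6 was 0.11, and that of all tested genes was 0.0086. GLI1, GLI3 and GAS1 were below the filter.

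**Figure D1:**
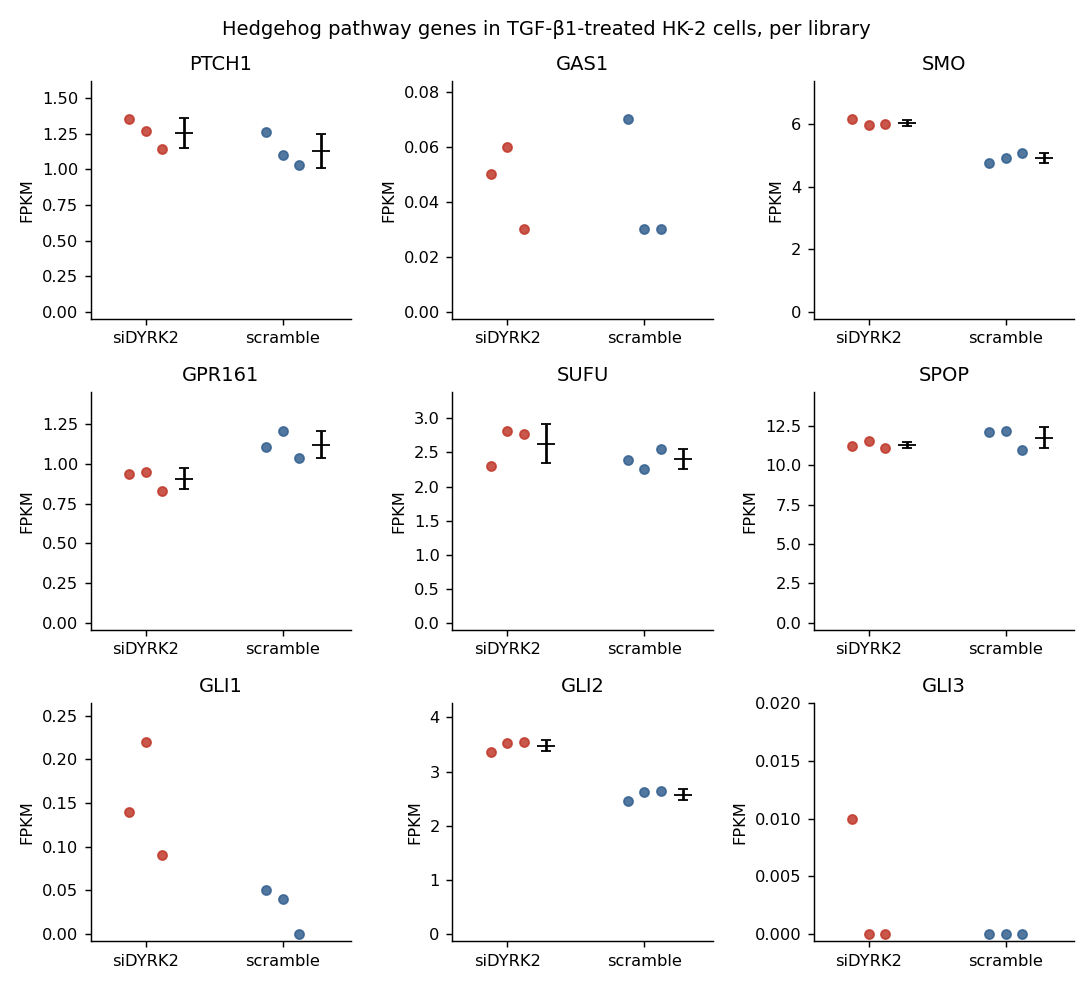
FPKM of the 9 genes in each library, with an axis of its own for each gene. Points are libraries, and the bar beside them is the mean ± SD of 3 libraries, drawn for the 6 genes that passed the expression filter. GLI2, SMO and GLI1 in siDYRK2 libraries lie above scramble libraries without overlap, and GPR161 lies below. The share without overlap was computed only for genes averaging 0.02 to 0.2 FPKM, where siDYRK2 lay above scramble in 4.95%.

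GLI2 (ENSG00000074047, GRCh38 chromosome 2, 120735623 to 120992653, plus strand), the main transcriptional activator of the pathway, had 3.36, 3.53 and 3.55 FPKM in siDYRK2 libraries, against 2.46, 2.62 and 2.64 FPKM in scramble libraries. Every siDYRK2 library lay above every scramble library. The mean was 3.48 ± 0.104 FPKM with siDYRK2 and 2.57 ± 0.0987 FPKM with scramble (SD, n = 3 each), a ratio of 1.35. The log2 fold change was 0.37 (SE 0.0552 and, by limma, adjusted p = 0.0019). Of all tested genes 7.92% had a fold change at least as high. GLI2 is also known as a gene that TGF-β induces through SMAD3 in several human cell types, and both groups here had received the cytokine.

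SMO (ENSG00000128602, GRCh38 chromosome 7, 129188872 to 129213545, plus strand), the membrane protein that passes the signal towards the GLI factors, had 6.16, 5.97 and 6 FPKM in siDYRK2 libraries, against 4.77, 4.94 and 5.09 FPKM in scramble libraries. The groups did not overlap. The mean was 6.04 ± 0.102 FPKM with siDYRK2 and 4.93 ± 0.16 FPKM with scramble (SD, n = 3 each), a ratio of 1.22, and the log2 fold change was 0.27 (SE 0.0445 and, by limma, adjusted p = 0.0031). Of all tested genes 14% had a fold change at least as high. An antisense gene, AC011005.4, overlaps SMO exons by 129 bases. It averaged 0.233 FPKM with siDYRK2 and 0.347 FPKM with scramble, and because strand use is not given in the sources used here its reads cannot be told apart from those of SMO in the overlap.

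Because these 2 genes rose together, their starts are shown. The windows run from 250 bases before to 50 bases after a RefSeq start on GRCh38.p14, 5′ to 3′ on the strand of the gene. They lie at chr2:120735618-120735917 (plus strand) for the first of 2 GLI2 starts and at chr7:129188383-129188682 (plus strand) for SMO. Capitals mark GC boxes, GGGCGG or its reverse complement CCGCCC, the motif bound by SP1. They do not overlap one another.
GLI2: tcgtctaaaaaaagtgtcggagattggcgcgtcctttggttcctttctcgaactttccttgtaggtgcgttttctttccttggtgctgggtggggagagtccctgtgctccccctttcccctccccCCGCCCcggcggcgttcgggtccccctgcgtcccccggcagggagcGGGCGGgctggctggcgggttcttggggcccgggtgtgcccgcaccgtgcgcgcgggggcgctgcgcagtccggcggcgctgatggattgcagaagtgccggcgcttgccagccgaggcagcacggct
SMO: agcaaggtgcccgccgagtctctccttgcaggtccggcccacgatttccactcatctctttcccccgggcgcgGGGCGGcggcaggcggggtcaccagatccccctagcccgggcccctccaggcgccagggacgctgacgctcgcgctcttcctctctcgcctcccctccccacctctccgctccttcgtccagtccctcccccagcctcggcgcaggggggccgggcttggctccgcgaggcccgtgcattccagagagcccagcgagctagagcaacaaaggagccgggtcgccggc

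Both windows are rich in G and C, 68.3% in that of GLI2 and 72% in that of SMO, against a median of 58.7% over all 35116 windows. The GLI2 window holds 2 GC boxes and the SMO window 1, a motif that 45% of all windows hold. Of the 98 windows of 54 other pathway genes 62.2% hold it. Neither trait is particular to GLI2 and SMO. The SUFU window holds 3 GC boxes, and a GPR161 window holds 7 at 78.7% G and C, and neither gene was called. The other GLI2 start, at chr2:120792031-120792330 (plus strand), holds 0 GC boxes, and FPKM summed over a gene do not say which start was used. Neither gene holds the GLI binding site GACCACCCA or its reverse complement TGGGTGGTC in these windows.

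PTCH1 (ENSG00000185920, GRCh38 chromosome 9, 95442980 to 95517057, minus strand), at once the receptor and the textbook transcriptional target of GLI activators, had 1.35, 1.27 and 1.14 FPKM in siDYRK2 libraries, against 1.26, 1.1 and 1.03 FPKM in scramble libraries. The groups overlapped. The means were 1.25 ± 0.106 FPKM with siDYRK2 and 1.13 ± 0.118 FPKM with scramble (SD, n = 3 each), and the log2 fold change of 0.11 was about as large as its SE of 0.0921 (limma adjusted p = 0.4). The antisense gene AL161729.1 overlaps PTCH1 exons by 711 bases and averaged 0.143 FPKM with siDYRK2 and 0.483 FPKM with scramble, and reads in this overlap cannot be told apart either.

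Among the windows of the pathway, that of one PTCH1 start contains the 9 letters of the GLI site, and it is shown for that reason. It lies at chr9:95509217-95509516 (minus strand), is credited to RefSeq on GRCh38.p14, and is printed 5′ to 3′ on the strand of the gene. Capitals mark TGGGTGGTC, the reverse complement of GACCACCCA.
PTCH1: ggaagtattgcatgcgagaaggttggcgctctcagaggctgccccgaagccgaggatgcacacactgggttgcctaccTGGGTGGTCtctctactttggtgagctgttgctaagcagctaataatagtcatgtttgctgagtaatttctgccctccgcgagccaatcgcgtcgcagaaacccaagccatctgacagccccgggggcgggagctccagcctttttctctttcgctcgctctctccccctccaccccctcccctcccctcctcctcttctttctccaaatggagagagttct

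It also holds 1 GC box, which does not overlap the GLI site. The site lies at chr9:95509430-95509438, with its first base 172 bases before that start. Both strands were searched, in 17 windows of the 7 genes with an entry (GLI2, PTCH1, SMO, SUFU, GAS1, GPR161 and SPOP), and this was the 1 window with a match. GLI1 and GLI3 had no entry. Of all 35116 windows 83 hold the site (0.236%), and of 98 windows of 54 other pathway genes 0 do. A match describes letters and not binding. Of the 35 tested genes with the site in a window 8 were called higher (22.9%) and 9 lower (25.7%), beside the 20.4% and 17.9% of all tested genes.

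GLI1 (ENSG00000111087, GRCh38 chromosome 12, 57460135 to 57472262, plus strand), whose transcript is the usual readout of pathway activity, was close to the lower end of what the table records. It was listed at 0.14, 0.22 and 0.09 FPKM in siDYRK2 libraries, against 0.05, 0.04 and 0 FPKM in scramble libraries. All siDYRK2 values were above all scramble values, in a table rounded to steps of 0.01 FPKM. Of the 8659 genes with a mean of 0.02 to 0.2 FPKM, 4.95% showed siDYRK2 values above scramble values without overlap. With 3 libraries a group the two-sided exact permutation test cannot go below 0.1, which is the p it gave. Its exons share 8 bases with ARHGAP9 on the other strand (0.133 FPKM with siDYRK2 and 0.257 FPKM with scramble). When genes of all levels were tested, limma gave GLI1 an adjusted p of 0.071. The fibroblast and pericyte markers, whose cell type expresses Gli1 in mouse kidney, were also higher in sum with siDYRK2 (0.86 to 0.96 FPKM, against 0.56 to 0.65 FPKM with scramble), and their part in the GLI1 values was not tested. Most of the rise in that sum was COL1A1, at 0.57 FPKM with siDYRK2 and 0.347 FPKM with scramble. COL1A1 did not overlap between groups, whereas the other markers with a row did. The share of all genes without overlap was not computed at the level of COL1A1. ACTA2 averaged 0.197 FPKM with siDYRK2 and 0.203 FPKM with scramble. In bulk RNA a change in the number of cells of a type and a change in RNA per cell cannot be told apart.

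GLI3 (ENSG00000106571), the main source of GLI repressor, was listed at 0.01, 0 and 0 FPKM in siDYRK2 libraries and at 0 FPKM in all 3 scramble libraries, so that no difference was detectable. GAS1 (ENSG00000180447), a membrane co-receptor for the ligands, was listed at 0.05, 0.06 and 0.03 FPKM with siDYRK2 and at 0.07, 0.03 and 0.03 FPKM with scramble, with overlap. GLI2 was thus the GLI factor with the highest level in every library, at 3.36 to 3.55 FPKM with siDYRK2 and 2.46 to 2.64 FPKM with scramble.

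The inhibitors and partners of the GLI proteins differed by less than the test could call. SUFU (ENSG00000107882, GRCh38 chromosome 10, 102503987 to 102633535, plus strand), which binds GLI proteins and keeps them from the nucleus, had 2.3, 2.82 and 2.77 FPKM in siDYRK2 libraries, against 2.39, 2.26 and 2.55 FPKM in scramble libraries. Replicate 1 of siDYRK2 lay among the scramble values. The log2 fold change was 0.11 (SE 0.0842 and, by limma, adjusted p = 0.36). SPOP (ENSG00000121067, GRCh38 chromosome 17, 49598884 to 49678234, minus strand), the adaptor through which the CUL3 ubiquitin ligase degrades full-length GLI2 and GLI3, had 11.25, 11.52 and 11.11 FPKM in siDYRK2 libraries and 12.12, 12.2 and 10.96 FPKM in scramble libraries. These overlapped, and the log2 fold change was −0.06 (SE 0.049 and, by limma, adjusted p = 0.42).

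GPR161 (ENSG00000143147, GRCh38 chromosome 1, 168079543 to 168137667, minus strand), a receptor in the cilium that raises cAMP and so favours GLI repressor, had 0.94, 0.95 and 0.83 FPKM in siDYRK2 libraries, against 1.11, 1.21 and 1.04 FPKM in scramble libraries. All siDYRK2 values were below all scramble values. The mean was 0.907 ± 0.0666 FPKM with siDYRK2 and 1.12 ± 0.0854 FPKM with scramble (SD, n = 3 each). The log2 fold change of −0.20 (SE 0.0882) did not pass the test (limma adjusted p = 0.11), but did without the mean-variance trend (limma adjusted p = 0.041).

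On the FPKM scale the order of the means in siDYRK2 libraries was SPOP, SMO, GLI2, SUFU, PTCH1, GPR161, GLI1, GAS1 and GLI3, and no neighbours in this order overlapped in their ranges. In scramble libraries the first 6 places were the same, but GLI2 (2.46 to 2.64 FPKM) overlapped SUFU (2.26 to 2.55 FPKM), and PTCH1 (1.03 to 1.26 FPKM) overlapped GPR161 (1.04 to 1.21 FPKM). GAS1, GLI1 and GLI3 followed with overlapping ranges there.

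Within each library, the ratio of GLI2 to its inhibitor SUFU was 1.46, 1.25 and 1.28 with siDYRK2, against 1.03, 1.16 and 1.04 with scramble, without overlap. Its mean was 1.33 ± 0.113 with siDYRK2 and 1.07 ± 0.0734 with scramble (SD, n = 3 each; exact two-sided permutation p = 0.1, the smallest possible). The ratio of SMO to PTCH1 was 4.56, 4.7 and 5.26 with siDYRK2, against 3.79, 4.49 and 4.94 with scramble, with overlap (exact two-sided permutation p = 0.4). Both ratios were chosen after the values were seen.

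**Figure D2:**
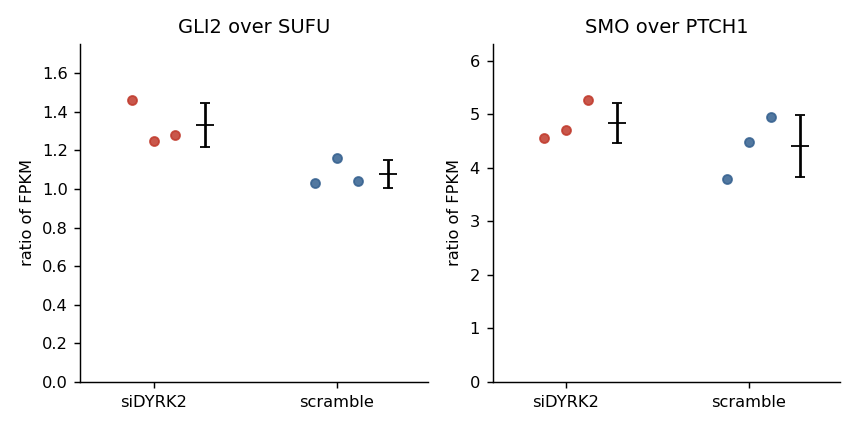
Ratios of FPKM within a library, GLI2 over SUFU and SMO over PTCH1. Points are libraries and the bars beside them mean ± SD of 3 libraries. For GLI2 over SUFU the siDYRK2 values of 1.25 to 1.46 lie above the scramble values of 1.03 to 1.16, while for SMO over PTCH1 the groups overlap.

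Among the genes whose pattern was most like that of GLI2 over the 6 libraries, by Pearson's r of log2(FPKM + 0.5), were IPPK (r = 0.9983) and BICD2 (0.998). Those most like SMO were GATA2 (0.9997), BMAL2 (0.9997) and CISH (0.9996). All 6 points share the difference between the groups, and 1053 tested genes had r above 0.95 with GLI2 and 1064 with SMO, so these values are a description.

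The rest of the pathway was read from 5 lists of 72 genes in all. Of these, 54 were tested, 13 were below the filter and 5 had no row under their symbol (IHH, HHIP, MYCN, FOXS1 and NKX2-2). Of the 54, 12 were called higher (22.2%) and 14 lower (25.9%), beside 20.4% higher and 17.9% lower over all tested genes. The median log2 fold change was −0.03.

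**Figure D3:**
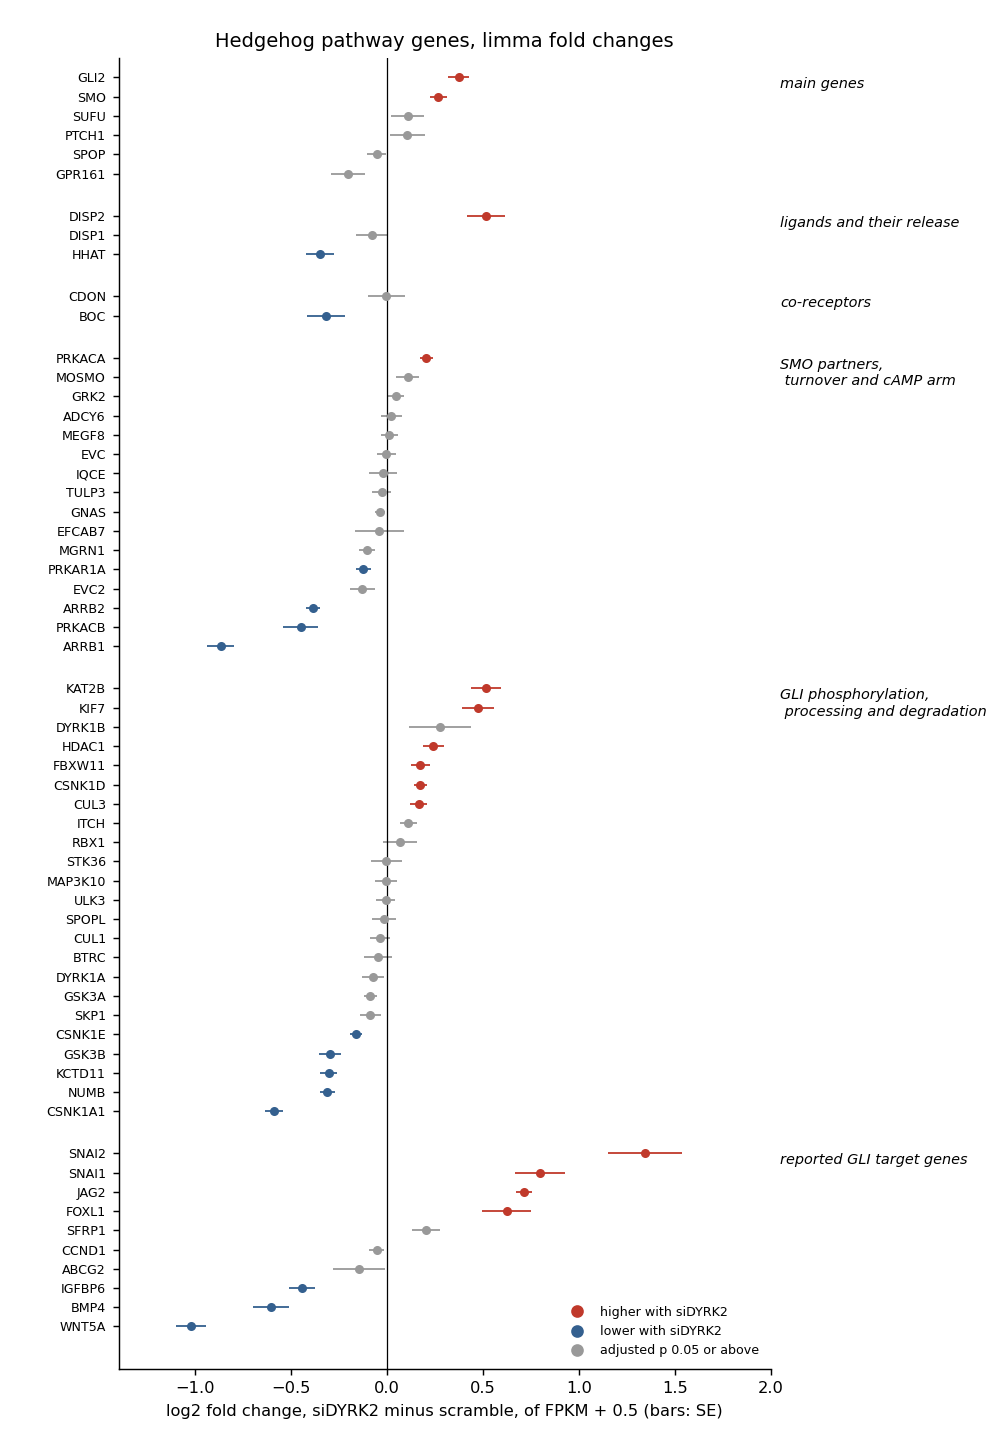
Limma log2 fold changes, on the log2(FPKM + 0.5) scale, siDYRK2 minus scramble, with SE, for the 6 tested main genes and the 54 tested genes of the 5 lists. Red points were called higher and blue points lower with siDYRK2. SNAI2 lies farthest to the right at 1.35 and WNT5A farthest to the left at −1.02.

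Ligands and the proteins that release them were low, and of 3 tested 1 was called higher and 1 lower (median log2 fold change −0.08). Over all tested genes 20.4% were called higher and 17.9% lower. SHH, the ligand best known from epithelia, was below the filter at 0.41, 0.37 and 0.46 FPKM with siDYRK2 and 0.46, 0.44 and 0.55 FPKM with scramble, with overlap. DHH, SCUBE1, SCUBE2 and SCUBE3 were at 0.1 FPKM or less in every library. HHAT, which attaches palmitate to the ligands, fell to 1.64 ± 0.107 FPKM with siDYRK2, against 2.22 ± 0.146 FPKM with scramble (SD, n = 3 each; log2 fold change −0.35, limma adjusted p = 0.0087). DISP2, a relative of the ligand exporter DISP1, was higher at 0.82 ± 0.0608 FPKM with siDYRK2 than at 0.423 ± 0.0153 FPKM with scramble (SD, n = 3 each; log2 fold change 0.52, limma adjusted p = 0.0055), and with a pseudocount of 0.1 its log2 fold change was 0.81. The scramble mean of DISP2 lay under the filter of 0.5 FPKM. DISP2 passed it, at 0.622 FPKM over all libraries, only through the siDYRK2 group. With no filter on low values DISP2 was called as well (limma adjusted p = 0.016). DISP1 itself was not called (0.913 FPKM with siDYRK2 and 0.993 FPKM with scramble, limma adjusted p = 0.47). Of the 2 tested co-receptors 0 were called higher and 1 lower (median log2 fold change −0.16). BOC was the lower one (0.537 FPKM with siDYRK2 and 0.793 FPKM with scramble, limma adjusted p = 0.041). This call did not hold in 9 of 14 alternatives, including each in which 1 library was left out, and its log2 fold change of −0.32 became −0.49 with a pseudocount of 0.1. CDON had 0.81 FPKM in both groups (limma adjusted p = 0.99).

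Among the partners of SMO and the cAMP arm 1 of 16 tested genes was called higher and 4 lower (median log2 fold change −0.03). These are 6.25% and 25%, beside 20.4% and 17.9% of all tested genes. Both β-arrestins, which bind phosphorylated SMO, were among the lower ones. ARRB1 had 1.44, 1.43 and 1.6 FPKM with siDYRK2, against 3.27, 3.21 and 2.91 FPKM with scramble (log2 fold change −0.87, SE 0.0709, limma adjusted p = 0.00014). ARRB2 had 14.07, 13.72 and 13.84 FPKM with siDYRK2, against 17.78, 18.16 and 18.96 FPKM with scramble (log2 fold change −0.39, SE 0.0364, limma adjusted p = 0.00026). Neither gene overlapped between groups.

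The subunits of protein kinase A, which phosphorylates GLI proteins for processing, went both ways. Its catalytic subunit PRKACA was higher at 14.5 ± 0.147 FPKM with siDYRK2, against 12.5 ± 0.333 FPKM with scramble (SD, n = 3 each; log2 fold change 0.21, limma adjusted p = 0.0036). The other catalytic subunit, PRKACB, was lower at 2.86 ± 0.0854 FPKM with siDYRK2, against 4.11 ± 0.582 FPKM with scramble (SD, n = 3 each; log2 fold change −0.45, limma adjusted p = 0.0076). The regulatory subunit PRKAR1A was lower at 13.1 FPKM with siDYRK2 and 14.3 FPKM with scramble (log2 fold change −0.12, limma adjusted p = 0.044). It was no longer called in 9 of 15 alternatives, among them those without siDYRK2 replicate 2 or 3 or any of the scramble replicates. GRK2, the kinase that phosphorylates SMO, and the ciliary proteins EVC and EVC2 were not called, and ADCY5 was below the filter.

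Of the 23 tested genes for phosphorylation, processing and degradation of GLI proteins 6 were called higher and 5 lower (median log2 fold change −0.01). These shares of 26.1% and 21.7% stand beside 20.4% and 17.9% over all tested genes. CSNK1A1, which encodes casein kinase 1 alpha, had 23.29, 23.25 and 21.54 FPKM with siDYRK2, against 32.64, 35.75 and 34.71 FPKM with scramble (log2 fold change −0.59, SE 0.0474, limma adjusted p = 0.00013). All siDYRK2 values were below all scramble values. The other kinases of the list did not move one way. GSK3A, STK36, ULK3 and MAP3K10 were not called (limma adjusted p = 0.077, 0.98, 0.93 and 0.94). CSNK1E had a log2 fold change of −0.16 (limma adjusted p = 0.0054) and GSK3B one of −0.30 (limma adjusted p = 0.0068), whereas CSNK1D was higher with one of 0.17 (limma adjusted p = 0.0066). KIF7, the ciliary kinesin that organises GLI proteins at the tip of the cilium, was higher at 3.61, 3.08 and 2.93 FPKM with siDYRK2, against 2.24, 2.02 and 2.24 FPKM with scramble (log2 fold change 0.47, limma adjusted p = 0.0041). The ratio of means was 1.48.

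NUMB, which directs the ligase ITCH to GLI1, was lower (10 ± 0.378 FPKM with siDYRK2 and 12.6 ± 0.178 FPKM with scramble, SD, n = 3 each; limma adjusted p = 0.00099). ITCH itself was not called (limma adjusted p = 0.09). KCTD11, an adaptor that directs CUL3 to HDAC1, was lower (4.73 ± 0.132 FPKM with siDYRK2 and 5.96 ± 0.104 FPKM with scramble, SD, n = 3 each; limma adjusted p = 0.0017). The acetyltransferase KAT2B was higher, at 4.44 ± 0.342 FPKM with siDYRK2 and 2.96 ± 0.274 FPKM with scramble (SD, n = 3 each; limma adjusted p = 0.0023). The 3 remaining called genes, named after their values were seen, were higher. They were HDAC1, a deacetylase of GLI1 and GLI2 (log2 fold change 0.24, limma adjusted p = 0.0096), CUL3, the ligase scaffold to which SPOP binds (0.17, limma adjusted p = 0.025), and FBXW11, a β-TrCP protein that recognises phosphorylated GLI (0.17, limma adjusted p = 0.031). The kinases DYRK1A and DYRK1B, relatives of DYRK2 reported to act on GLI1, were not called (limma adjusted p = 0.34 and 0.22). DZIP1, a basal body protein, was below the filter at 0.45 FPKM with siDYRK2 and 0.3 FPKM with scramble.

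Genes that other studies name as GLI targets did not move one way. Of 10 tested, 4 were called higher and 3 lower (median log2 fold change 0.07). The shares were 40% and 30%, beside 20.4% higher and 17.9% lower over all tested genes. JAG2, a Notch ligand, rose to 9.47, 8.94 and 9.16 FPKM with siDYRK2, against 5.42, 5.52 and 5.29 FPKM with scramble (log2 fold change 0.71, SE 0.0419, limma adjusted p = 3.4e-05). SNAI1 and SNAI2, repressors of epithelial genes that also respond to TGF-β, were higher. SNAI2 had 2.95, 3.32 and 3.22 FPKM with siDYRK2, against 0.68, 0.76 and 1.51 FPKM with scramble (log2 fold change 1.35, limma adjusted p = 0.0016), with scramble replicate 3 above the other scramble libraries. SNAI1 averaged 2.91 ± 0.285 FPKM with siDYRK2 and 1.47 ± 0.324 FPKM with scramble (SD, n = 3 each; limma adjusted p = 0.0031). FOXL1, a forkhead factor of mesenchyme that Hedgehog signalling induces in mouse gut, was higher at a low level, 0.67, 0.7 and 0.8 FPKM with siDYRK2 and 0.35, 0.35 and 0.19 FPKM with scramble (log2 fold change 0.62, limma adjusted p = 0.0079). At this level the fold change depends on the pseudocount, and it was 1.08 with 0.1 and 0.41 with 1, both called. FOXL1 averaged 0.297 FPKM with scramble and 0.51 FPKM over all libraries. It thus passed the filter of 0.5 FPKM only through the siDYRK2 libraries, and its place among the 4 called higher rests on that. With no filter on low values FOXL1 was called as well (limma adjusted p = 0.02).

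WNT5A, a secreted Wnt ligand, fell to 0.62, 0.56 and 0.61 FPKM with siDYRK2, against 1.7, 1.7 and 1.79 FPKM with scramble (log2 fold change −1.02, SE 0.0783, limma adjusted p = 1e-04). BMP4, a secreted ligand of the BMP family, fell to 1.47 ± 0.116 FPKM with siDYRK2, against 2.51 ± 0.305 FPKM with scramble (SD, n = 3 each; limma adjusted p = 0.0023). IGFBP6, an IGF binding protein, fell to 12 ± 1.23 FPKM with siDYRK2, against 16.4 ± 0.261 FPKM with scramble (SD, n = 3 each; limma adjusted p = 0.0023). CCND1, the G1 cyclin, was by far the most abundant of the list and was not called, at 120 ± 5.33 FPKM with siDYRK2 and 125 ± 3.71 FPKM with scramble (SD, n = 3 each; limma adjusted p = 0.33). SFRP1 (limma adjusted p = 0.061) and ABCG2 (limma adjusted p = 0.43) were not called. BCL2, CCND2, FOXF1, FOXF2 and FOXC2 were below the filter, with 0.16 FPKM or less in every library.

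**Figure D4:**
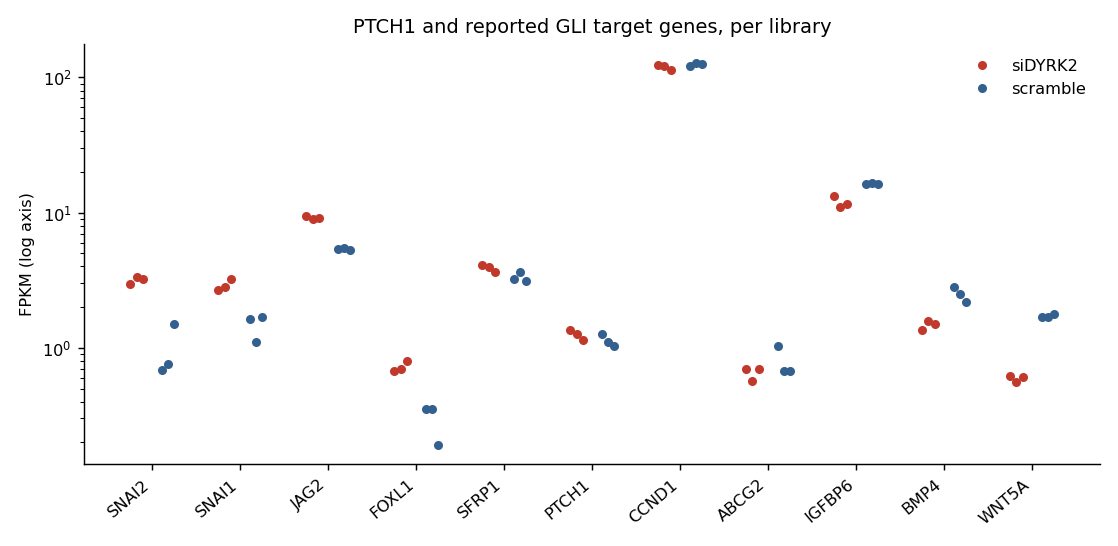
FPKM per library on a log axis for PTCH1 and the 10 tested genes of the target list, with siDYRK2 libraries left of scramble libraries for each gene. SNAI2, SNAI1, JAG2 and FOXL1 are higher with siDYRK2, IGFBP6, BMP4 and WNT5A lower, and PTCH1 overlaps between the groups.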

How the data were processed

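Total RNA was isolated with Trizol and DNase I, and libraries were made and sequenced on an Illumina platform by a provider, per the labels' protocols. HISAT2, StringTie and the build GRCh38 appear in the submitters' processing notes. For annotation, strandedness and filters the sources used here give nothing. The authors deposited FPKM, scaled within each library and rounded to 2 decimals, per the file headers, so depth is unknown and no counting interval is given. All 6 columns matched the labels by library name, and 0 others were present.

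The 15121 genes averaging 0.5 FPKM or more entered limma 3.58.1 (R 4.3.3) as log2(FPKM + 0.5), without a block, using a mean-variance trend and a Benjamini-Hochberg threshold of 0.05. Promoter windows came from RefSeq (GRCh38.p14), and positions, overlaps and 3′ untranslated regions from GENCODE 29 on GRCh38, searched in Python 3.11.15 with pandas 2.3.3. Named genes were the 9 genes, DYRK2, up to 8 called genes of each list by adjusted p, and list genes that were not tested. Listed genes given as not called beyond these were picked after their values were seen. Some genes that the rule names are not reported here. The genes and lists were chosen with earlier results of these data known. Alternatives changed the pseudocount, the filter, the scaling, the trend and the block, or left out each library.

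Whether replicate numbers pair the libraries was checked by correlating deviations from group means, and they were not taken as pairs.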

Additional observations from a re-analysis of the deposited data

How the results depend on the processing

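GLI2 and SMO were called higher under all 15 alternatives, with log2 fold changes of 0.33 to 0.42 and 0.25 to 0.29, and adjusted p up to 0.01 and 0.018. PTCH1, SUFU and SPOP were called under none of them. Without the trend limma called 2674 of all 15121 tested genes lower. Among them was 1 of the 9 genes, GPR161 (log2 fold change −0.20, adjusted p = 0.041), and the cause was not tested. Over its 15 alternatives the adjusted p of GPR161 ranged from 0.041 to 0.27. GLI1, untested at this level, had a log2 difference of 0.29, which by construction of the scale became 0.93 with a pseudocount of 0.1 and 0.16 with 1, and that of GLI3 was 0.046 with a pseudocount of 0.1. The 5 lists gave 10 to 12 genes called higher and 12 to 14 lower. Over the same alternatives 2355 to 3219 of all tested genes were called higher and 2112 to 2728 lower. With the replicate number as a block, GLI2 (adjusted p = 0.0099) and SMO (adjusted p = 0.018) were still called, and BOC (adjusted p = 0.087) and PRKAR1A (adjusted p = 0.063) were not. Same-numbered libraries did not deviate together (r = −0.0767, 0.0243 and −0.0884). Low FPKM limits what can be said of GLI1, GLI3, GAS1 and SHH.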

Other observations

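A word of 7 bases in the 3′ untranslated region, ATCTATA, was unevenly spread over the genes called in each direction. The word was picked from earlier results of these data, so its share among genes called lower is not independent support. It occurs in 10.7% of 11706 tested genes searched, in 6.36% of the 2895 called higher and in 18.1% of the 2177 called lower. Of 53 pathway genes searched 8 contain it (15.1%), of which 0 are among the 12 called higher, 5 among the 14 called lower and 3 among those not called (ABCG2, SKP1 and SPOPL, with 1 copy each). The 5 called lower are CSNK1A1, GSK3B, PRKACB and PRKAR1A with 2 copies each and NUMB with 1. The other 9 genes called lower, among them ARRB1, ARRB2, WNT5A and BMP4, have 0 copies, as do the 6 tested main genes, GLI2 and SMO included. The median length searched was 1796 bases in the pathway genes called higher and 1726 bases in those called lower, against 1210 and 1418 bases over all genes called higher and lower. It was 1981 bases in the 53 pathway genes and 1256 bases in all 11706 genes searched. The part of length in these shares was not tested. The sequence of the siRNA is not given in the sources used here, and the part of this word in the differences was not tested.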
